A study of Mus musculus with 6 samples.

Results

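Cell division and DNA replication genes were followed in 6 mouse mammary cell lines. A set of 39 genes was chosen by name, covering the cyclins, kinases and inhibitors of the G1/S step, the replication machinery and the genes of G2 and mitosis. Of these, 38 have a row in the deposited table of 23449 genes and Ccnd2 was not analysed here. All 38 passed the filter on low counts, as did 13698 genes in total.

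The 16IC group holds 3 lines of genotype 16IC/WT and the EIC group holds 3 lines of genotype EIC/WT. The title of EIC 2 carries the letters NT where those of the other lines carry a number, their meaning is not stated, and the line was placed in EIC by its genotype label. All 6 come from mammary tissue of female FVB/N mice and were grown in doxycycline at 10 ug/mL with 10% fetal bovine serum, EGF, insulin and pituitary extract, so both groups share this treatment and no line without it was analysed here. The series title names HER2Δ16, a splice form of the receptor HER2 (ErbB2), and the labels do not spell out the genotype names. Neither the labels nor the files give the promoter of any transgene, the clonality of the lines or the animals behind them, so p-values measure the spread between these samples. Total counts ran from 15621563 to 16091846 in 16IC and from 16742109 to 17468498 in EIC.

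As background, D-type cyclins with CDK4 or CDK6 start the exit from G1 by phosphorylating the retinoblastoma protein, which frees E2F factors to switch on replication genes. Cyclin E with CDK2 then fires S phase on origins licensed by the MCM helicase. A later wave of genes, driven by FOXM1 and B-MYB with the MuvB complex, supplies cyclin B with CDK1, the Aurora and Polo kinases, the spindle checkpoint and the ubiquitin ligase that ends mitosis. In ErbB2-driven mammary tumours cyclin D1 is a known mediator of proliferation.

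Promoters of late genes and of MCM genes are shown because the levels of each class varied together across the lines, as described further on. RefSeq promoter windows on GRCm38.p6, from 250 bases before to 50 bases after a start, were matched to 31 of the 39 members. Ccnd1, Ccnd2, Ccne2, Mcm4, Ccna2, Foxm1, Aurkb and Kif20a had no entry in that set. The CHR element (cell cycle genes homology region, read by MuvB complexes) was searched as TTTGAA or TTCGAA on both strands, the second of which is its own reverse complement. It was present in 11 of 13 G2 and mitosis members, 2 of 10 replication members and 0 of 8 G1/S members, against 21.7% of all 27025 genes with a window. An E2F site was searched on both strands as TTTCCCGC, TTTGGCGC, TTTCGCGC or TTTGCCGC, whose matches can overlap. It was present in 4 of 10 replication members, 1 of 13 G2 and mitosis members and 1 of 8 G1/S members, against 2.6% of all genes. Further lists of genes that are no members were searched too. The CHR letters were present in 23 of 32 mitosis genes, 7 of 34 licensing and fork genes, 7 of 19 G1/S regulators and 2 of 11 checkpoint and recombination genes. The E2F letters were present in 2, 12, 7 and 3 genes of these lists, in the same order. The further G1/S regulators thus had both kinds of letters more often than the G1/S members. The classes were not separate in these letters. Both replication members with CHR letters are MCM genes, of which Mcm2 had no E2F match and Mcm7 had both kinds, and the mitotic member with E2F letters is Cdk1, which has CHR letters too. A match is a description of the letters and not evidence of binding.

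In 5 mitotic members the CHR letters lie within 30 bases before the start. The stretches below run from 80 bases before the start to 20 bases after it, 5′ to 3′ on the coding strand, with CHR matches in capitals (TTCAAA is the match read on the other strand). They lie at chr10:69352893-69352992 (minus strand, Cdk1), chr4:118437324-118437423 (minus, Cdc20), chr19:37376302-37376401 (plus, Kif11), chr11:99024170-99024269 (minus, Top2a) and chr2:164769849-164769948 (plus, Ube2c).
Cdk1: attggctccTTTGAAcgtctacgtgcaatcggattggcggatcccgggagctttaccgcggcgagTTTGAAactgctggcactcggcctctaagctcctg
Cdc20: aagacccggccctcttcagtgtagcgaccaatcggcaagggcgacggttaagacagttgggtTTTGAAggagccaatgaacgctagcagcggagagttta
Kif11: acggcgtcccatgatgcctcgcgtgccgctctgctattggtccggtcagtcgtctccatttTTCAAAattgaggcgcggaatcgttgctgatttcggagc
Top2a: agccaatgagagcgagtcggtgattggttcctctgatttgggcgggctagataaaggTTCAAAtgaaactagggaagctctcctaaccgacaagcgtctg
Ube2c: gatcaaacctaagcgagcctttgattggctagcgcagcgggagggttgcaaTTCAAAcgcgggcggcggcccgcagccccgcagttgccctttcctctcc

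For the MCM genes the stretch runs from 180 bases before the start to 20 after it, with E2F matches in capitals. Mcm5 lies at chr8:75109329-75109528 (plus strand) and Mcm6 at chr1:128359686-128359885 (minus strand), and where matches overlap they form 1 run of capitals.
Mcm5: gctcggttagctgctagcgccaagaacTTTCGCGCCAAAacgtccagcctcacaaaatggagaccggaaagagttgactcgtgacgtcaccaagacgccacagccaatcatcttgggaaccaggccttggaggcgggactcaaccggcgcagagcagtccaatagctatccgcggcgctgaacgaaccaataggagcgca
Mcm6: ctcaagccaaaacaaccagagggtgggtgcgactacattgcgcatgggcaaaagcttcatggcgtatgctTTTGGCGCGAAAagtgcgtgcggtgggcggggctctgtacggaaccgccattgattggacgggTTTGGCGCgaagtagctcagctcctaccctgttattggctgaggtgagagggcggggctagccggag

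The comparison of 16IC with EIC asks how the genotypes differ in these genes. Levels are given as CPM, counts relative to the TMM-scaled library size. No member passed the test. The quasi-likelihood test of edgeR, adjusted over all 13698 genes by Benjamini and Hochberg, called 0 of 38 members, against 2.45% of all genes tested (1.25% higher and 1.2% lower in 16IC). At an unadjusted p under 0.05 it found 3 members, Cdk6, Cdkn2c and Cdc20, all lower in 16IC (22.7% of all genes in either direction, 10.1% lower). limma-voom called 0 members (2.1% of all genes, 1.06% lower) and DESeq2 called 2, Cdk6 and Cdkn2c, both lower in 16IC (15.3% of all genes in either direction, 7.04% lower). The authors' deposited table has the same 2 members under an adjusted p of 0.05, where 13% of these genes are (6.06% lower). Without 16IC 3 edgeR called 1 member, Cdkn2c, against 13.4% of all genes (6.82% lower). In 35 of the 38 members the log2 fold change was negative, with a median of -0.52, where 50.3% of all genes were negative with a median of -0.0044. Groups that did not overlap were found in 4 members, Cdk6, Cdkn2c, Aurka and Cdc20, all with 16IC below EIC, a pattern seen in 14.2% of all genes.

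The line 16IC 3 carried the lowest level of most members. It was the lowest of the 6 lines in 33 of 38 members, where 25.3% of all genes tested were lowest there, and it was lowest in all 17 G2 and mitosis members. In bulk RNA a smaller share of dividing cells and less transcript per cell cannot be told apart. Without 16IC 3 the median log2 fold change of the mitotic members was -0.36 in place of -0.77, that of the replication members was 0.11 in place of -0.24, and that of the G1/S members was -0.38 in place of -0.41. EIC 2 was the highest line in 26 of 38 members, where 2942 of all 13698 genes tested were highest there. Without EIC 2 these medians were -0.54 for mitotic, -0.13 for replication and -0.25 for G1/S members.

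**Figure D1:**
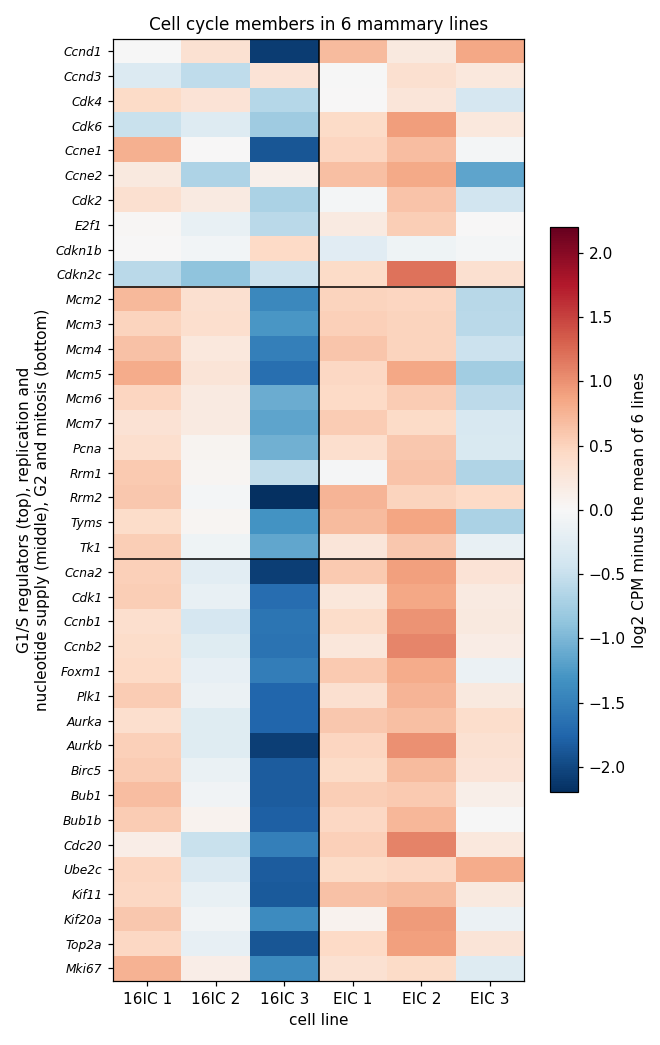
Colour shows log2 CPM (counts scaled to the TMM library size) of each of 38 members minus its mean over the 6 lines, with 16IC lines left of EIC lines and the role groups separated by black lines. The 16IC 3 column is the lowest in every G2 and mitosis row, while Cdk6 and Cdkn2c are low in all 3 16IC columns.

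Some other measures set 16IC 3 apart too. It had the lowest epithelial marker sum, the highest basal marker sum and the highest mitochondrial share of the 6 lines. In the other marker sums below it was not at an extreme. The part of any of them in its low levels was not tested. The 13 markers of mammary epithelium summed to 12702, 12787 and 2423 CPM in 16IC 1 to 3 and to 3902, 3027 and 3634 CPM in EIC 1 to 3. A sum follows its most abundant genes. By gene, 2 of the 13 were lowest of the 6 lines in 16IC 3 and 6 in EIC 2 (25.3% and 20.8% of all genes tested). In 16IC 3, 11 lay below both other 16IC lines (44.7% of all genes). Between the groups 1 of the 13 log2 fold changes was negative, at -8.36 (50.3% of all genes were negative), and the median of the 13 was 2.36. DESeq2 called 8 of the 13 higher in 16IC, edgeR 1 and limma-voom 0, as 1133, 171 and 142 of all 13698 genes tested were. Of the 13, the epithelial adhesion gene Epcam was nearly absent in EIC (0.456, 1.08 and 3.79 CPM). Genes at 0 counts were found in both groups. Krt19 was at 0 in 16IC 1 and 16IC 2, Cldn7 in EIC 1 and EIC 2, and Cldn4 in EIC 2. The keratin gene Krt8 was well counted in every line (580.4 to 2652 CPM in 16IC, 1349 to 1929 CPM in EIC). The 5 fibroblast markers of 9 in the table summed to 7.47, 9.06 and 27.3 CPM in 16IC 1 to 3 and to 89.8, 11.4 and 104 CPM in EIC 1 to 3, with Col1a2 at 0 in 16IC 3, EIC 1 and EIC 3. The 8 basal markers summed to 16.8, 1.77 and 48.4 CPM in 16IC 1 to 3 and to 0.570, 22.0 and 0.746 CPM in EIC 1 to 3, so the sum was highest in 16IC 3, although the basal keratin genes Krt5 and Krt17 were at 0 there. The 5 leukocyte markers of 12 summed to 12.5 to 19.1 CPM in 16IC and 14.6 to 47.7 CPM in EIC, and Ptprc, which marks all leukocytes, was at 0 in 16IC 3 and at most 0.306 CPM elsewhere. The 5 endothelial markers of 7 and the 2 adipocyte markers of 5 summed to at most 1.88 CPM in any 16IC line, and to 0.601 to 4.16 and 0.241 to 42.2 CPM in EIC. Mitochondrial genes took 1.997, 2.22 and 3.39% of counts in 16IC 1 to 3, and 1.4998, 0.926 and 1.38% in EIC 1 to 3.

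Of the 10 tested G1/S regulators 2, Cdk6 and Cdkn2c, had no overlap between the groups. Both had 16IC below EIC, as 14.2% of all genes tested did (31.4% had no overlap in either direction). Cdk6 (ENSMUSG00000040274, chromosome 5, 3341485 to 3531008), a kinase partner of the D cyclins, had 72.4, 84.1 and 59.0 CPM in 16IC 1 to 3, against 136.9, 192 and 119.9 CPM in EIC 1 to 3. Every 16IC line lay below every EIC line. The log2 fold change of -1.06 had an SE of 0.24 and edgeR did not call it (adjusted p = 0.0772, and 0.00318 to 0.24 over the alternatives). In the authors' deposited table the value is -1.08 with an adjusted p of 0.0117. Cdkn2c (ENSMUSG00000028551, chromosome 4, 109660876 to 109667189) encodes p18-INK4C, an inhibitor that binds CDK4 and CDK6. It had 37.0, 30.4 and 40.0 CPM in 16IC 1 to 3, against 74.3, 127 and 70.8 CPM in EIC 1 to 3, again without overlap. The log2 fold change of -1.34 had an SE of 0.28 (adjusted p = 0.0658 by edgeR, and 0.000937 to 0.225 over the alternatives), and without 16IC 3 it was -1.43 and passed the edgeR threshold (adjusted p = 0.0468). In the authors' deposited table it is -1.37 with an adjusted p of 0.00262. For both genes 16IC 3 lay near the other 16IC lines, and the Cdk6 value without it was -0.94. Exons of Cdk6 overlap those of Gm17590 on the opposite strand, and with the strand setting of the counting not stated their reads cannot be told apart.

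The kinase Cdk4 did not follow Cdk6. Cdk4 had 310.2, 285 and 150.4 CPM in 16IC 1 to 3, against 234.6, 280.1 and 180.2 CPM in EIC 1 to 3, and the groups overlapped (log2 fold change 0.10 with an SE of 0.33, adjusted p = 0.883 by edgeR). Its sign turned without 16IC 1, 16IC 2 or EIC 3 (-0.087, -0.0099 and -0.062). In deposited FPKM, which corrects for gene length, Cdk4 exceeded Cdk6 by a ratio of 18.4, 14.6 and 10.97 in 16IC 1 to 3, against 7.38, 6.28 and 6.47 in EIC 1 to 3. This ratio was looked at after the values of both genes were seen, and the groups did not overlap. Exons of Cdk4 share 641 bases with those of Tspan31 on the opposite strand, which has 8604 counts in total against 23794 for Cdk4. With the strand setting not stated, reads from these bases cannot be told apart, in the Cdk4 level or in the ratio.

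Cyclin D1 was the most abundant member per gene length in every line but 16IC 3. Ccnd1 (chromosome 7, 144929931 to 144939925) had 186, 236 and 44.9 FPKM in 16IC 1 to 3, against 302, 209 and 344 FPKM in EIC 1 to 3. In 16IC 3 the Cdk4 level, 46.1 FPKM, was slightly above it. As CPM, Ccnd1 had 895, 1143 and 212 in 16IC 1 to 3, against 1467, 1042 and 1628 in EIC 1 to 3, so the groups overlapped through 16IC 2 and EIC 2 (log2 fold change -0.88 with an SE of 0.60, adjusted p = 0.438 by edgeR). Cyclin D3 went the other way in 16IC 3. Ccnd3 had 59.0, 49.1 and 89.0 CPM in 16IC 1 to 3, against 71.6, 92.1 and 85.0 CPM in EIC 1 to 3 (log2 fold change -0.34 with an SE of 0.26, adjusted p = 0.497 by edgeR). Of the summed counts per kilobase of Ccnd1 and Ccnd3, Ccnd1 made up 96.6, 97.7 and 81.6% in 16IC 1 to 3, against 97.4, 95.5 and 97.3% in EIC 1 to 3. The means were 92.0% ± 8.98 and 96.7% ± 1.09 (SD, n = 3 lines each).

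The inhibitor of cyclin E and CDK2 complexes, p27-KIP1, is encoded by Cdkn1b, which spanned a narrow range. It had 128, 122 and 172 CPM in 16IC 1 to 3, against 107.5, 119 and 124 CPM in EIC 1 to 3. It was highest in 16IC 3, and the groups overlapped (log2 fold change 0.27 with an SE of 0.19, adjusted p = 0.455 by edgeR). The S-phase cyclin gene Ccne1 had 20.8, 12.2 and 3.31 CPM in 16IC 1 to 3, against 16.8, 19.5 and 11.8 CPM in EIC 1 to 3. It was lowest in 16IC 3. Its relative Ccne2 had 7.41, 3.98 and 6.88 CPM in 16IC 1 to 3, against 10.04, 11.4 and 2.86 CPM in EIC 1 to 3, and its exons overlap those of Ints8 on the opposite strand, which has more counts. Their kinase Cdk2 had 49.1, 44.2 and 23.9 CPM in 16IC 1 to 3, against 37.4, 59.4 and 28.9 CPM in EIC 1 to 3. E2f1, a transcription factor that both drives and belongs to the replication programme, had 45.8, 40.0 and 29.6 CPM in 16IC 1 to 3, against 51.2, 65.1 and 44.8 CPM in EIC 1 to 3. The groups overlapped in all 4 genes, and their edgeR adjusted p ran from 0.302 to 0.901.

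**Figure D2:**
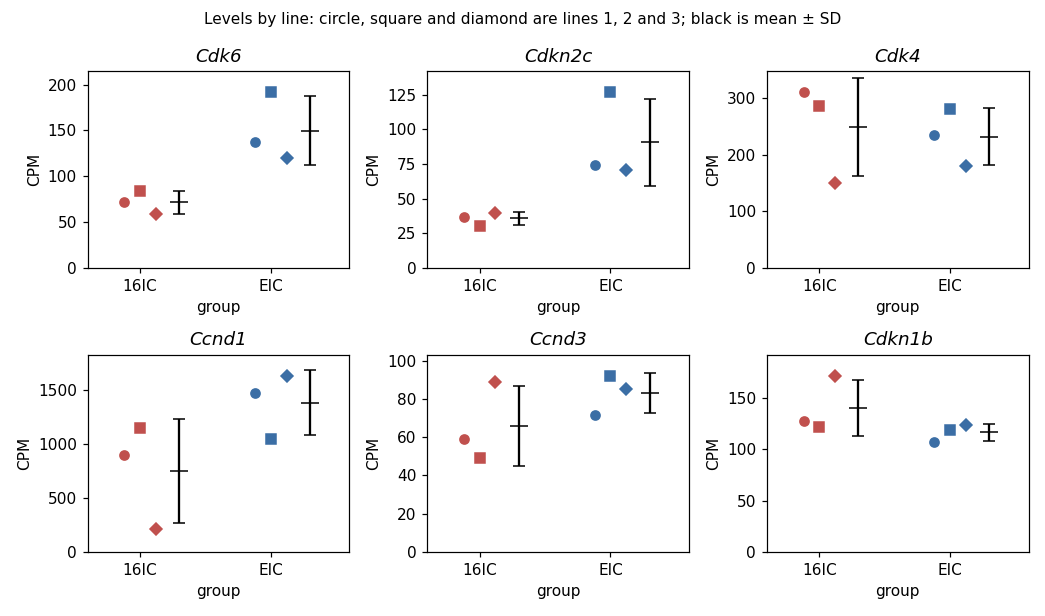
CPM of 6 G1/S genes in each line, 16IC left of EIC, with symbols for lines 1, 2 and 3 and the mean ± SD of 3 lines in black. Cdk6 and Cdkn2c have no overlap between groups, while Ccnd1 at 212 CPM and Cdk4 at 150.4 CPM are lowest in 16IC 3 and Cdkn1b at 172 CPM is highest there.

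Replication genes were low in 16IC 3 and, less so, in EIC 3. To give each line 1 level per role, the 6-line mean of each gene was taken off its log2 CPM and the median of the role's genes was used. For the 11 replication and nucleotide genes it was 0.54, 0.19 and -1.28 in 16IC 1 to 3, against 0.50, 0.55 and -0.57 in EIC 1 to 3. Both groups therefore held 1 line well below its own partners. All 11 genes lay below both other 16IC lines in 16IC 3 (44.7% of all genes tested did) and below both other EIC lines in EIC 3 (32.8%). They were at least 2-fold below both partners in 10 genes in 16IC 3 (11.8% of all genes) and in 5 genes in EIC 3 (3.2%). Rrm1 was lowest of all in EIC 3.

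The 6 MCM genes encode the helicase that is loaded at origins and unwinds DNA. Mcm5, with the largest ratio of its highest to its lowest line in this family, had 131, 91.0 and 23.5 CPM in 16IC 1 to 3, against 103, 135 and 44.0 CPM in EIC 1 to 3. Mcm2 had 171, 132 and 38.8 CPM in 16IC 1 to 3, against 146, 143 and 67.9 CPM in EIC 1 to 3. The order 16IC 3, then EIC 3, then the other 4 lines held in all 6 MCM genes. Their log2 fold changes between the groups ran from -0.34 for Mcm7 to -0.06 for Mcm2, with edgeR adjusted p of 0.694 to 0.958. Without 16IC 3 those of Mcm2 to Mcm6 were positive, at 0.11 to 0.34, and that of Mcm7 was -0.01.

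Pcna, the sliding clamp of the polymerases and the member of this group with the most counts, had 199, 161 and 73.8 CPM in 16IC 1 to 3, against 199.5, 234 and 122 CPM in EIC 1 to 3. It followed the MCM order with the groups overlapping (log2 fold change -0.36 with an SE of 0.42, adjusted p = 0.665 by edgeR). Rrm1 and Rrm2 encode the subunits of ribonucleotide reductase, which makes deoxyribonucleotides, and they differed in range. Rrm2 had 114, 73.1 and 15.9 CPM in 16IC 1 to 3, against 126, 106 and 101 CPM in EIC 1 to 3, so it was low in 16IC 3 and close to its partners in EIC 3. Rrm1 had 229.6, 159.9 and 106 CPM in 16IC 1 to 3, against 151, 238 and 97.8 CPM in EIC 1 to 3. The ratio of the mean of 16IC 1 and 16IC 2 to 16IC 3 was 5.88 for Rrm2, the largest of the 38 members, and 1.83 for Rrm1. Tyms, which makes thymidylate, had 36.5, 28.1 and 11.1 CPM in 16IC 1 to 3, against 44.7, 49.98 and 16.9 CPM in EIC 1 to 3. The thymidine kinase gene Tk1 had 94.7, 60.8 and 29.3 CPM in 16IC 1 to 3, against 77.8, 98.3 and 58.1 CPM in EIC 1 to 3. In both genes 16IC 3 was lowest and EIC 3 was next.

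**Figure D3:**
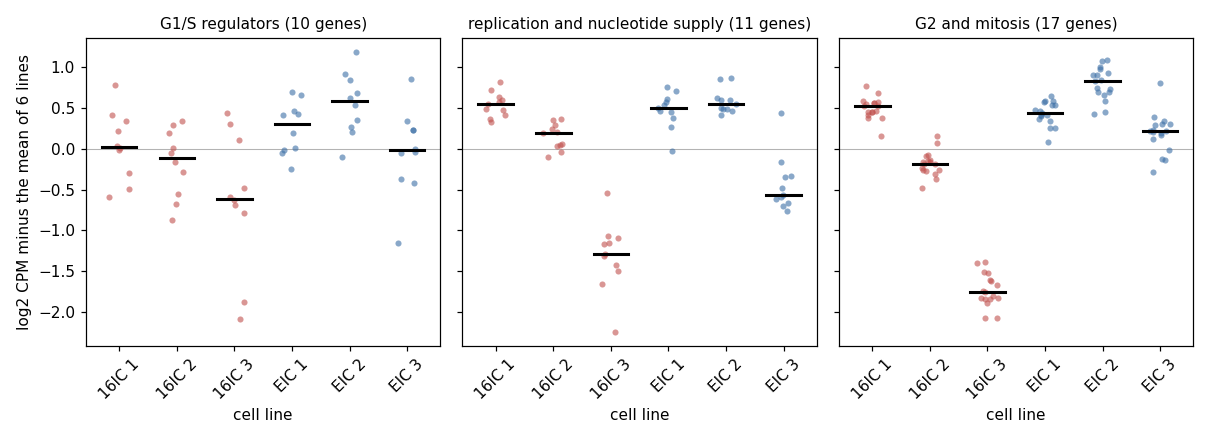
Each point is 1 member's log2 CPM minus its mean over the 6 lines, by line and role group, with 16IC lines left of EIC lines and a black bar at the median. The replication medians are -1.28 in 16IC 3 and -0.57 in EIC 3, and the G2 and mitosis medians are -1.75 in 16IC 3 and 0.22 in EIC 3.

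The G2 and mitosis genes varied together across the lines, with EIC 3 less far below its partners than in the replication genes. Their level was 0.53, -0.18 and -1.75 in 16IC 1 to 3, against 0.43, 0.82 and 0.22 in EIC 1 to 3. In 16IC 3 all 17 were at least 2-fold below both other 16IC lines, against 11.8% of all genes tested. In EIC 3, 16 of 17 lay below both other EIC lines, but 0 did so by 2-fold or more, against 3.2% of all genes. The mitotic minus the replication level was -0.02, -0.37 and -0.47 in 16IC 1 to 3, against -0.06, 0.27 and 0.78 in EIC 1 to 3, with 16IC 1 and EIC 1 alike and EIC 3 the highest. All 17 log2 fold changes between the groups were negative, with a median of -0.77, and edgeR called 0 (adjusted p = 0.21 to 0.932). limma-voom and DESeq2 called 0 as well, and 1 gene, Cdc20, had an unadjusted p under 0.05. Of all genes tested, edgeR called 2.45%, limma-voom 2.1% and DESeq2 15.3%, and 22.7% had an unadjusted edgeR p under 0.05.

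Cdc20, which activates the anaphase-promoting complex, showed the largest difference of the mitotic genes. It had 76.3, 49.2 and 24.1 CPM in 16IC 1 to 3, against 99.3, 145.6 and 80.2 CPM in EIC 1 to 3, with no overlap (log2 fold change -1.12 with an SE of 0.45, adjusted p = 0.210 by edgeR, and -0.79 without 16IC 3). Ube2c, the ubiquitin-conjugating enzyme of the same complex, had 106, 62.2 and 21.5 CPM in 16IC 1 to 3, against 102, 105 and 135 CPM in EIC 1 to 3. It was the 1 mitotic gene that was highest in EIC 3. Top2a, the topoisomerase that untangles chromosomes and the mitotic member with the most counts, had 389, 251 and 77.1 CPM in 16IC 1 to 3, against 385, 533 and 347 CPM in EIC 1 to 3, so 16IC 1 lay above EIC 1 (log2 fold change -0.82 with an SE of 0.56, adjusted p = 0.439 by edgeR, and -0.40 without 16IC 3).

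Among the mitotic cyclins and their kinase, the highest and the lowest line were shared. Cdk1, the kinase of mitotic entry, had 122, 74.5 and 26.1 CPM in 16IC 1 to 3, against 99.7, 149.7 and 95.2 CPM in EIC 1 to 3. Its partner Ccnb1 had 90.4, 54.0 and 22.8 CPM in 16IC 1 to 3, against 92.3, 138 and 80.9 CPM in EIC 1 to 3. Ccnb2, a further B-type cyclin, had 65.5, 40.8 and 16.0 CPM in 16IC 1 to 3, against 58.6, 103 and 55.1 CPM in EIC 1 to 3. EIC 2 was highest and 16IC 3 lowest in each of them. Ccna2, the cyclin of S and G2, had 108, 63.7 and 17.7 CPM in 16IC 1 to 3, against 112, 140.2 and 91.9 CPM in EIC 1 to 3. Foxm1, which drives the late programme, had 128, 82.8 and 32.6 CPM in 16IC 1 to 3, against 139, 166 and 86.0 CPM in EIC 1 to 3. In these genes 16IC 1 lay among the EIC lines or close to them, while 16IC 2 lay below every EIC line, in Foxm1 by a narrow margin.

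Of the mitotic kinases, Aurka, which acts at centrosomes, had 48.4, 31.1 and 11.1 CPM in 16IC 1 to 3, against 56.0, 58.8 and 48.9 CPM in EIC 1 to 3, and here the groups did not overlap, by a narrow margin between 16IC 1 and EIC 3. Aurkb and Birc5 encode the kinase and survivin of the chromosomal passenger complex. Aurkb had 59.8, 34.7 and 9.86 CPM in 16IC 1 to 3, against 57.5, 83.4 and 52.4 CPM in EIC 1 to 3. Birc5 had 70.5, 42.8 and 13.4 CPM in 16IC 1 to 3, against 63.6, 76.9 and 58.8 CPM in EIC 1 to 3. In both, 16IC 1 lay between EIC lines and 16IC 2 below every EIC line. Plk1, Bub1, Bub1b, Kif11 and Kif20a, the Polo kinase, the checkpoint kinases and the spindle motors, had 9.73 to 23.9 CPM in 16IC 3, 32.7 to 95.1 CPM in the other 16IC lines and 37.8 to 118 CPM in EIC.

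The proliferation marker Mki67 had 346, 226 and 77.0 CPM in 16IC 1 to 3, against 257, 273 and 166 CPM in EIC 1 to 3, and 16IC 1 was the highest line. Of the mitotic members this was so of Bub1 too, with 55.5, 32.7 and 9.73 CPM in 16IC 1 to 3, against 50.2, 51.97 and 37.8 CPM in EIC 1 to 3. The Mki67 log2 fold change of -0.10 (SE 0.53, edgeR adjusted p = 0.932) was the closest to 0 of the mitotic members, and it became 0.30 without 16IC 3.

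**Figure D4:**
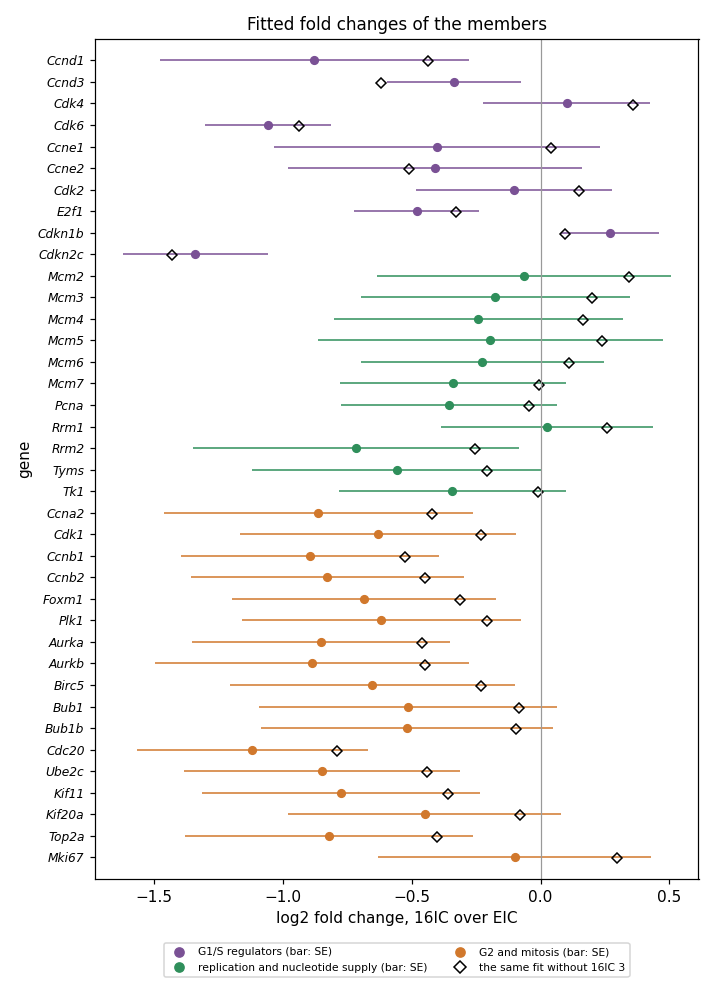
Filled circles are the fitted log2 fold changes of 38 members, 16IC over EIC, with bars of 1 SE, coloured by role. Open diamonds are the same fit without 16IC 3, where the mitotic genes other than Mki67 stay below 0 with a group median of -0.36 and Cdk6 and Cdkn2c are at -0.94 and -1.43.

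Further genes of the same steps that are no members were examined by list. Of 24 other G1/S regulators 20 were tested, with a median log2 fold change of -0.18. edgeR and limma-voom called 0 of them (2.45% and 2.1% of all genes tested). An unadjusted p under 0.05 was found in 4 (22.7% of all genes), and DESeq2 called 2 (15.3%). Groups did not overlap in 4 with 16IC below and in 1 with 16IC above (14.2% and 17.2% of all genes). E2f8, an atypical E2F that represses the replication programme, had 43.8, 30.3 and 6.62 CPM in 16IC 1 to 3, against 100.04, 87.1 and 119.9 CPM in EIC 1 to 3, without overlap (log2 fold change -1.93 with an SE of 0.64, adjusted p = 0.146 by edgeR). Leaving out 16IC 3 gave -1.47, which passed the edgeR threshold (adjusted p = 0.0237, and 0.0219 to 0.320 over the alternatives). Cdkn2d, which encodes p19-INK4D, another inhibitor of CDK4 and CDK6, had 20.8, 12.9 and 12.1 CPM in 16IC 1 to 3, against 20.99, 54.1 and 34.1 CPM in EIC 1 to 3 (log2 fold change -1.25 with an SE of 0.41, adjusted p = 0.147 by edgeR). Ccng2, a cyclin-like gene linked to cell cycle arrest, had a log2 fold change of -0.79 and Fbxw7, which targets cyclin E for destruction, one of 0.54 (edgeR adjusted p = 0.136 and 0.216). The p53 target Cdkn1a, which encodes p21, had 215, 227 and 76.7 CPM in 16IC 1 to 3, against 228, 244 and 259 CPM in EIC 1 to 3, so it was low in 16IC 3 and the groups did not overlap, by a narrow margin (log2 fold change -0.49, edgeR adjusted p = 0.525). Cdkn2a and Cdkn2b were not analysed here. Rb1, chosen after its values were seen, had 14.2, 14.99 and 101 CPM in 16IC 1 to 3, against 19.6, 44.99 and 27.9 CPM in EIC 1 to 3. Highest in 16IC 3 were 3496 of all 13698 genes tested and 3 of the 20 genes of this list. The related gene Rbl1 was lowest there, with 64.5, 50.9 and 23.9 CPM in 16IC 1 to 3, against 63.8, 59.8 and 37.5 CPM in EIC 1 to 3. Rbl2, a further related gene, had 27.6, 28.7 and 70.2 CPM in 16IC 1 to 3, against 28.2, 69.6 and 42.2 CPM in EIC 1 to 3. Like Rb1 it was highest in 16IC 3, though by a narrow margin over EIC 2. Rbl1 and Rbl2 were likewise chosen after their values were seen.

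Of 43 other licensing and fork genes all were tested, and 38 were lowest in 16IC 3 (25.3% of all genes tested). Their median log2 fold change was -0.29, and edgeR and limma-voom called 0. An unadjusted p under 0.05 was found in 2 (22.7% of all genes), and DESeq2 called 1 (15.3% of all genes). That gene, Rpa1, the large subunit of the single-strand binding protein, had 139.99, 99.1 and 85.0 CPM in 16IC 1 to 3, against 189.7, 198 and 168 CPM in EIC 1 to 3 (log2 fold change -0.78 with an SE of 0.23, adjusted p = 0.119 by edgeR). Dut, which removes dUTP, had 66.0, 50.2 and 20.6 CPM in 16IC 1 to 3, against 83.5, 101 and 96.6 CPM in EIC 1 to 3, also without overlap (edgeR adjusted p = 0.206). Groups did not overlap in 3 of the 43 licensing and fork genes with 16IC below, and in 0 with 16IC above (14.2% and 17.2% of all genes). Of 40 other mitosis and cytokinesis genes all were lowest in 16IC 3, with a median log2 fold change of -0.52. edgeR, limma-voom and DESeq2 called 0 of them, and 1 had an unadjusted p under 0.05 (22.7% of all genes). That gene was Cdc25b, a phosphatase that activates CDK1, with 54.5, 35.1 and 15.2 CPM in 16IC 1 to 3, against 67.5, 79.5 and 105 CPM in EIC 1 to 3 (log2 fold change -1.27, edgeR adjusted p = 0.178). Of 15 checkpoint and recombination genes 14 were tested and 12 were lowest in 16IC 3. Their median was -0.15, and edgeR, limma-voom and DESeq2 called 0 (2.45%, 2.1% and 15.3% of all genes tested). An unadjusted p under 0.05 was found in 0 (22.7% of all genes).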

How the data were processed

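RNA of 6 mouse mammary cell lines was analysed from 1 deposited table of all libraries. Per the submitters' processing notes, Trimmomatic, STAR, HTSeq, edgeR and limma were used, with builds GRCm38 and mm10. Their versions and settings, the strand setting and the annotation are not stated in those notes. The count columns hold the authors' reads per gene as whole numbers. The authors also deposited a signal, the count over 1 size factor per library, and FPKM from the count and gene length. Per the file headers, the authors' log2 fold change, p-value and adjusted p-value compare the groups.

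Counts were filtered with filterByExpr (minimum count 10) and scaled by TMM. The comparison used the quasi-likelihood test of edgeR 4.0.16 in R 4.3.3, with genes called at adjusted p under 0.05. Positive log2 fold changes are higher in 16IC, and SE is the size of the log2 fold change over the square root of F. Alternatives were DESeq2 1.42.0, limma-voom (limma 3.58.1), other factors and filters, a robust fit, a threshold of 0.1, each line left out, and 16IC 1 with 16IC 2 summed. These most alike lines still differed beyond sampling noise (mean chi-square 19.9 per gene). The edgeR fit was run on simulated data as a check of the code, and its power at the spread of these data is not given here.

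The members and lists were chosen with earlier results of these data known. Replicate numbers follow accession order. Values per line are given by rule for the D cyclins, Cdkn1b, Cdkn2c, each role group's member with the most counts, and members without overlap and with a log2 fold change of at least 1 in size, and of each other list up to 4 genes with the smallest p are open to naming, plus Cdkn1a and Cdkn2a. Values of other members are added. Exons of 15 members overlap another gene, and 11 of them a gene of the table on the opposite strand. Coordinates are GRCm38 as deposited.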

Additional observations from a re-analysis of the deposited data

How the results depend on the processing

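No paired analysis was possible because the replicate numbers only follow accession order. Of all genes edgeR called 335, against 223 with no filter on low counts, 2098 with DESeq2 and 1184 at an adjusted p under 0.1. With 16IC 1 and 16IC 2 summed it called 0. In that fit 16IC holds the sum and 16IC 3, and the sum is assumed to vary like the other samples. With 1 line left out edgeR called 0 to 1913 (5 without 16IC 1, 0 without 16IC 2, EIC 1 or EIC 3, and 1913 without 16IC 3). Of the members it called 0, against 2 with DESeq2, 2 at an adjusted p under 0.1 and 0 to 1 with 1 line left out. Of the other G1/S regulators DESeq2 called 2 and leaving out a line gave 0 to 1, and of the licensing and fork genes DESeq2 called 1.

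With 1 line left out the median log2 fold change ran from -0.60 to -0.25 for G1/S, -0.65 to 0.11 for replication and -1.30 to -0.36 for mitotic members, and levels per line moved by less than the spread between lines with other factors or a mean. Without length correction Ccnd1 made up 70.5% in 16IC 3 and 95.3, 91.9 and 95.0% in EIC 1 to 3. Single log2 fold changes turned sign when a line was left out in Cdk4 (-0.087 to 0.36), Ccne1 (-1.04 to 0.041), Cdk2 (-0.32 to 0.23), Mcm2 (-0.47 to 0.34), Mcm3 (-0.47 to 0.20), Mcm4 (-0.66 to 0.17), Mcm5 (-0.71 to 0.24), Mcm6 (-0.53 to 0.11), Rrm1 (-0.29 to 0.40), Mki67 (-0.61 to 0.30) and Rb1 (-1.08 to 0.91). With 16IC 1 and 16IC 2 summed Cdk4 was at -0.043 and Rrm1 at -0.10, with no filter Rrm1 was at -0.00224, and with limma-voom Rb1 was at -0.079. None of these genes passed the edgeR threshold in those fits, and the cause was not tested.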
